A study of Mus musculus with 18 samples.

Results

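The genes described here encode secreted survival factors of 3 kinds and their receptors. They are the ligand genes Gdnf, Nrtn, Bdnf and Cdnf, the receptor tyrosine kinase genes Ret, Ntrk2 and Ntrk3, and the co-receptor genes Gfra1 and Gfra2. A gene was taken as measured where a probe set, a group of short probes on the array against 1 transcript, carried its symbol alone in the platform annotation. By that rule 8 of the 9 genes were measured, with 30 probe sets, among 18193 genes in all. Cdnf had no such probe set and was not analysed here.

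Glial cell line-derived neurotrophic factor (GDNF) and neurturin, the products of Gdnf and Nrtn, bind the membrane-anchored co-receptors GFRA1 and GFRA2, and the complex activates the tyrosine kinase RET. Brain-derived neurotrophic factor (BDNF), the product of Bdnf, activates the kinase TRKB, encoded by Ntrk2, and neurotrophin 3 activates TRKC, encoded by Ntrk3. Both GDNF and BDNF are known for supporting the survival of midbrain dopamine neurons, and adult dopamine neurons of the substantia nigra (SN) and ventral tegmental area (VTA) are known to carry RET and GFRA1.

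Neurons labelled as dopamine neurons were taken by laser capture from the SN, the region that degenerates most in Parkinson disease, and from the VTA beside it. All animals were adult C57Bl/6 mice carrying the hTH-GFP transgene, in which human tyrosine hydroxylase sequences drive green fluorescent protein, and were housed singly for 9 weeks. One set received the dopamine neuron toxin MPTP at 4 mg/kg for 2 days, a further set the same dose for 10 days, and the controls saline for 10 days, and death followed 7 days after the last injection. Each of the 6 groups (SN control, SN 2 day MPTP, SN 10 day MPTP, and the same in VTA) had 3 arrays. The sample descriptions call the controls untreated, and the 2 day groups also differed from the controls in the number of days of injection. The labels call the replicates biological but tie no array to a mouse, so SN and VTA arrays may share animals, and they do not state how many mice an array holds or how neurons were recognised.

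Every value below is a log2 signal centred on the probe set's own median over the 18 arrays, averaged over a gene's probe sets. A value of 0 is therefore the middle of the 18 arrays for a single probe set, and only roughly so for a mean of several. It is not absence, and no gene's level can be set against another's. The number of arrays limits the precision. Over all probe sets the median absolute deviation was 0.235 on SN control array 1 and 0.269 on VTA 2 day array 1, against 0.123 to 0.204 on the other arrays. No level is known, so markers cannot show here which cells were captured, and only their pattern is given. The tyrosine hydroxylase gene Th was at 0.87 ± 0.50 (SD, n = 3) in SN controls and -0.42 ± 0.40 (SD, n = 3) after 2 days in SN. In VTA controls Th was at 0.42 ± 1.14 (SD, n = 3), with the lowest array at -0.90, and after 2 days in VTA at -0.37 ± 0.72 (SD, n = 3).

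**Figure D1:**
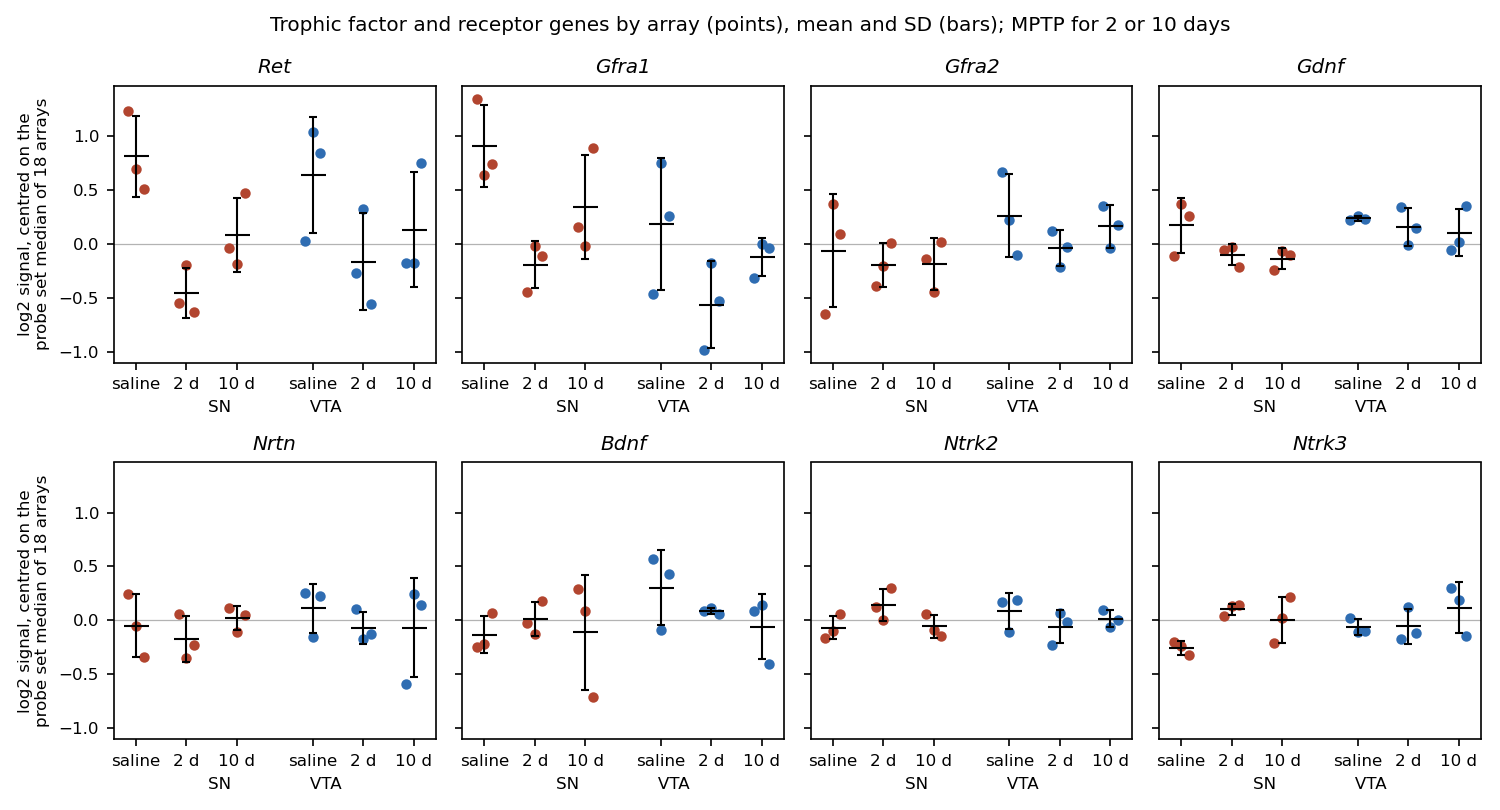
Centred log2 signal of the 8 measured genes on each array (points), by region (red for SN, blue for VTA) and treatment, with group mean and SD (horizontal line and bars, n = 3). Ret and Gfra1 span the widest range of group means, 1.27 and 1.48, and Ntrk2 the narrowest, 0.21.

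Ret, the signalling receptor shared by all GDNF family ligands, had its highest mean in SN controls. Its centred log2 signals there were 1.23, 0.70 and 0.51 on arrays 1, 2 and 3. After 2 days of MPTP they were -0.55, -0.19 and -0.63 in SN, and after 10 days they were -0.04, -0.18 and 0.47. All 3 SN control arrays lay above all 6 SN arrays after MPTP, although the lowest control array and the highest 10 day array were close. In VTA controls Ret was at 0.03, 1.04 and 0.84, so that array 1 stood under arrays 2 and 3. After 2 days in VTA it was at -0.27, 0.33 and -0.56, and after 10 days at -0.18, -0.18 and 0.75. VTA groups overlapped, since 1 array after each duration lay above control array 1.

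Gfra1, the co-receptor preferred by GDNF, is the next member. Its SN control arrays were at 1.35, 0.64 and 0.74. SN arrays after 2 days were at -0.44, -0.02 and -0.11, and those after 10 days at 0.16, -0.02 and 0.89. The control and 2 day arrays of SN did not overlap, whereas 10 day array 3 lay within the controls. VTA control arrays were at -0.46, 0.75 and 0.26, VTA arrays after 2 days at -0.99, -0.18 and -0.53, and VTA arrays after 10 days at -0.32, 0.00 and -0.04. As for Ret, VTA control array 1 was the low one and made the VTA groups overlap.

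The 250 bases upstream of the Gfra1 start are shown because Gfra1 was the gene of the set with the widest range of group means. They come from RefSeq (GRCm38.p6, minus strand, chr19:58455399-58455648) and are written 5′ to 3′ in lower case, with capitals reserved for motif matches, of which there were 0.

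Gfra1 promoter: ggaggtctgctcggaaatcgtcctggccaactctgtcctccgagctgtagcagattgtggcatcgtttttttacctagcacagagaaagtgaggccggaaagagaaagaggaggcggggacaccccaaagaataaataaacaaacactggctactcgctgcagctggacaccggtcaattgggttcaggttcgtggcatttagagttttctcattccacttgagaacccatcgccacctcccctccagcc

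The letters searched, on both strands, were AAAGGTCA for the NBRE to which NR4A receptors bind, TGACGTCA for the CRE, CACGTG for an E-box, GGGCGG for a GC box and TATAAA for a TATA box. Of 32851 upstream windows of this length, 1.34%, 1.55%, 6.02%, 32.7% and 12.4% held them, in that order. The absence of a match says only that these letters are not in this window. Its GC content was 52.4%, equal to the median of all windows. The set had 13 such windows, that of Cdnf included, with 7 for Bdnf and 2 for Gdnf. Of the 13, 1 held a TATA box, at base -31 of a Gdnf window. GC boxes were in 3, which belonged to Nrtn and Bdnf. None of the 5 motifs contains another.

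In SN after 2 days of MPTP the mean of Ret was 1.27 log2 units under the controls and that of Gfra1 1.10 under them, but no gene of the set passed the test. The limma difference was -1.27 ± 0.31 for Ret (SE, n = 3 and 3; 95% interval -1.94 to -0.60), a 2.41-fold lower signal, with a limma p of 0.000956 and an adjusted p of 0.522. For Gfra1 it was -1.10 ± 0.30 (SE, n = 3 and 3; 95% interval -1.74 to -0.46), a 2.15-fold lower signal, with a limma p of 0.00212 and an adjusted p of 0.566. Among 18193 genes ordered by p, Ret stood at place 33 and Gfra1 at place 68. Without SN control array 1, the highest array for both genes, the differences were -1.06 and -0.88.

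Ntrk3, which encodes the neurotrophin 3 receptor TRKC, went the other way in the same comparison. Its SN control arrays were at -0.21, -0.24 and -0.33 and its SN 2 day arrays at 0.04, 0.13 and 0.14. The groups did not overlap, and their SDs, 0.062 and 0.054, were among the smallest of the set. These are SDs of a mean over 8 probe sets, whose median pairwise r was 0.016. The limma difference was 0.36 ± 0.14 (SE, n = 3 and 3), with a limma p of 0.0221 and an adjusted p of 0.693. It was 0.38 without SN control array 1. In the limma fit of single probe sets, the smallest unadjusted p of the 8 Ntrk3 probe sets was 0.0636. Ntrk3 values after 10 days in SN, -0.21, 0.02 and 0.21, spanned both groups.

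Counted over the set, 0 of 8 genes passed an adjusted p under 0.05 in SN after 2 days (limma, Benjamini-Hochberg over all genes), as did 0.0% of all genes. At an unadjusted p under 0.05 there were 3 of 8, against a background of 6.65% of all genes. Of them, Ret and Gfra1 were lower, against 3.8% of all genes, and Ntrk3 was higher, against 2.85%. The same 3 had no overlap between arrays, against 14.5% of all genes, with 8.56% lower and 5.96% higher. The other 5 genes had overlapping arrays, although Gdnf, the ligand gene, overlapped only through SN control array 1. Its SN control arrays were at -0.11, 0.37 and 0.25 and its SN 2 day arrays at -0.05, -0.03 and -0.22.

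After 10 days in SN only Ret had groups without overlap, and its difference was smaller than after 2 days of MPTP in value. The limma difference was -0.73 ± 0.31 (SE, n = 3 and 3), with a limma p of 0.0344 and an adjusted p of 0.889, and it was -0.52 without SN control array 1. Gfra1 was at -0.57 ± 0.30 (SE, n = 3 and 3), with a limma p of 0.0775 and an adjusted p of 0.925, and at -0.35 without SN control array 1. No gene of 8 passed the adjusted threshold, as against 0.0055% of all genes, and 1 of 8 had an unadjusted p under 0.05, against 5.57%. The count without overlap was 1 of 8, against 11.3% of all genes. Both 10 day values rest on the same controls as the 2 day values, and the difference between durations was not tested.

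In VTA the 2 receptor genes were lower after 2 days of MPTP by sizes that did not clear the adjusted threshold either. Ret differed by -0.80 ± 0.31 (SE, n = 3 and 3), with a limma p of 0.0212 and an adjusted p of 0.549. Gfra1 differed by -0.75 ± 0.30 (SE, n = 3 and 3), with a limma p of 0.0241 and an adjusted p of 0.563. These were the 2 of 8 genes with an unadjusted p under 0.05, against 8.06% of all genes. None of the 8 passed the adjusted threshold, against 0.011% of all genes, and 0 of 8 had groups without overlap, against 10.0%. The Gfra1 value depended on single arrays, running from -1.07 without VTA control array 1 to -0.47 without VTA control array 2. Without VTA 2 day array 1, the array of widest spread, Ret was at -0.75 and Gfra1 at -0.54.

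After 10 days in VTA the differences were -0.51 ± 0.31 for Ret and -0.30 ± 0.30 for Gfra1 (SE, n = 3 and 3). Their limma p were 0.126 and 0.328, with adjusted p of 0.934 and 0.982. Leaving out single arrays took the Gfra1 value from -0.63 to -0.02. The Ret value was -0.82 without VTA 10 day array 3 and -0.31 without VTA control array 2. None of 8 genes had an unadjusted p under 0.05, against 5.41% of all genes, none had groups without overlap, against 9.31%, and none passed the adjusted threshold, against 0.011%.

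**Figure D2:**
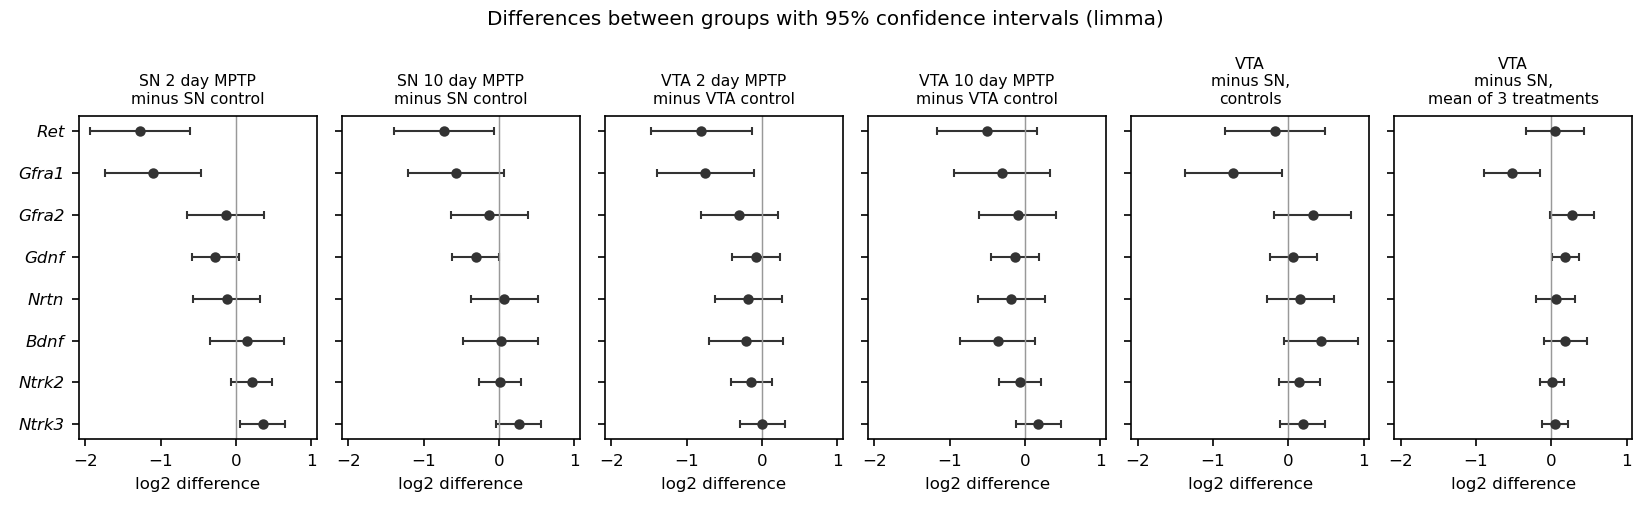
Differences between group means on the log2 scale (points) with 95% limma confidence intervals (bars) for the 8 measured genes in 6 comparisons. The Ret and Gfra1 points lie furthest from 0 in SN after 2 days, at -1.27 and -1.10.

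The series compares the answer of VTA neurons to MPTP with that of SN neurons. For Ret, the VTA difference minus the SN difference was 0.47 ± 0.45 after 2 days (SE; 95% interval -0.48 to 1.41) and 0.22 ± 0.45 after 10 days (95% interval -0.72 to 1.16). For Gfra1 it was 0.35 ± 0.43 after 2 days (SE; 95% interval -0.55 to 1.26) and 0.26 ± 0.43 after 10 days (95% interval -0.64 to 1.17). Leaving out single arrays took the 2 day values from 0.16 to 0.67 for Ret and from 0.030 to 0.64 for Gfra1, both lowest without VTA control array 1. Every one of these intervals holds 0 and also holds 1, so the arrays do not separate an equal from a clearly smaller VTA response. In these limma tests 0 of 8 genes had an unadjusted p under 0.05 at either duration, against 3.3% of all genes after 2 days and 3.17% after 10 days, and 0 passed the adjusted threshold, as did 0.0% of all genes.

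Between regions, Gfra1 had the largest difference of the set, with the lower signal in VTA. Of 19 measured dopamine neuron identity genes (Th and others, described below), 14 were also lower in VTA controls. Their median was -0.41, beside -0.00019 for all genes, and none had an unadjusted p under 0.05 in limma. Over the 3 treatments 13 of 19 were lower, with a median of -0.10. Their part in the Gfra1 difference was not tested. In controls the VTA minus SN difference of Gfra1 was -0.73 ± 0.30 (SE, n = 3 and 3), with a limma p of 0.0283 and an adjusted p of 0.9998. It ran from -1.01 to -0.40 when single arrays were left out, with -0.40 without VTA control array 1 and -0.51 without SN control array 1. Averaged over the 3 treatments it was -0.52 ± 0.17 (SE, 9 arrays a region), with a limma p of 0.00856 and an adjusted p of 0.972. All 3 Gfra1 probe sets had the lower mean signal in VTA, from -0.57 to -0.44. Without the 2 arrays of widest spread the mean difference was -0.38. Ret, by contrast, was at -0.17 ± 0.31 in controls and 0.054 ± 0.18 over the 3 treatments, and both values changed sign in some fits that left out an array.

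Over the 3 treatments 7 of the 8 genes had the higher mean in VTA, beside 52.6% of all genes, and none passed the adjusted threshold. Gfra2 was at 0.28 ± 0.14 (SE, 9 arrays a region), with a limma p of 0.0623 and all 5 probe sets higher. In controls Bdnf was at 0.44 ± 0.23 (SE, n = 3 and 3), with a limma p of 0.0794 and both probe sets higher. Ntrk3 in controls and Gdnf over the 3 treatments are given by array. Ntrk3 had no overlap between VTA control arrays, at 0.02, -0.11 and -0.10, and SN control arrays, with a difference of 0.19 ± 0.14 (SE, n = 3 and 3) and a limma p of 0.189. That difference was 0.026 for the most variable Ntrk3 probe set, 2 of the 8 probe sets were lower in VTA, and after 2 days the VTA mean of -0.057 lay under the SN mean of 0.10. Gdnf had a VTA minus SN difference of 0.19 ± 0.085 over the 3 treatments (SE, 9 arrays a region), with a limma p of 0.0422 and an adjusted p of 0.972. It has 1 probe set, and in the fit of single probe sets its limma p was 0.0570. Without the 2 arrays of widest spread that difference was 0.11, with a limma p of 0.175. Its VTA control arrays were at 0.22, 0.26 and 0.23, an SD of 0.022, while after 10 days SN arrays were at -0.24, -0.07 and -0.10. VTA arrays were at 0.34, -0.01 and 0.15 after 2 days and at -0.06, 0.01 and 0.35 after 10 days. In controls 1 of 8 genes had an unadjusted p under 0.05, against 4.36% of all genes, and 1 of 8 no overlap, against 7.31%. Over the 3 treatments 2 of 8 had an unadjusted p under 0.05, against 4.2%. None passed the adjusted threshold in either comparison between regions, as did 0.0% of all genes.

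Beside their spread, the remaining genes had narrower ranges of group means than Ret, Gfra1, Ntrk3 and Gdnf. Gfra2, the co-receptor preferred by neurturin, had group means from -0.20 in SN after 2 days to 0.26 in VTA controls, a range of 0.46 with a within-group SD of 0.31. Nrtn, the neurturin gene, ranged over 0.29, from -0.17 in SN after 2 days to 0.11 in VTA controls, with an SD of 0.27. Bdnf ranged over 0.44, from -0.13 in SN controls to 0.30 in VTA controls, with an SD of 0.30. Ntrk2, the gene of the BDNF receptor TRKB, ranged over 0.21, from -0.067 in SN controls to 0.14 in SN after 2 days, with an SD of 0.13. For Gfra2, Nrtn, Bdnf and Ntrk2, no 2 neighbouring groups in the order of means differed by more than that SD.

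In the order of group means, Ret ran from SN control through VTA control, VTA 10 day, SN 10 day and VTA 2 day to SN 2 day. Of the 5 neighbouring pairs only VTA control and VTA 10 day differed by more than the within-group SD of 0.43. Gfra1 ran from SN control through SN 10 day, VTA control, VTA 10 day and SN 2 day to VTA 2 day, with a within-group SD of 0.41, and only its first neighbours differed by more. Ntrk3 ran from VTA 10 day, at 0.11, through SN 2 day, SN 10 day, VTA 2 day and VTA control to SN control, at -0.26. Its last 2 groups differed by more than the SD of 0.15 and did not overlap. Gdnf, with an SD of 0.16, had its gap between VTA 10 day and SN 2 day, with all 3 VTA groups above both SN groups given MPTP in mean.

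Probe sets of one gene measure the same product at different places, and how far they moved together differed sharply within the set. The 2 Ret probe sets correlated at r = 0.93 over the 18 arrays, more than the median pairwise r of 99.7% of the 9010 genes with several probe sets. The 3 Gfra1 probe sets, 2 of them from one source transcript, correlated at 0.78 to 0.87, with a median of 0.82 that exceeded 98.5% of genes. Gfra2 had a median of 0.54 and Bdnf an r of 0.36. Gdnf and Nrtn had 1 probe set each, so their agreement could not be read. For the kinase genes with 8 probe sets each, the median was 0.12 for Ntrk2 and 0.016 for Ntrk3, near or under the 0.149 of all such genes. TRKB and TRKC genes are known to yield kinase and truncated forms, and the probe sets were not assigned to forms here.

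In SN after 2 days both Ret probe sets were lower, the further one at -1.54, and all 3 Gfra1 probe sets were lower, from -1.26 to -0.85. All 8 Ntrk3 probe sets were higher, but from 0.08 to 0.76, and 6 of 8 Ntrk2 probe sets were higher, from -0.16 to 0.61 over the 8. In VTA after 2 days the Ntrk3 probe sets divided into 4 higher and 4 lower. Both Ret and all 3 Gfra1 probe sets were lower there too, Ret from -0.90 to -0.71 and Gfra1 from -1.04 to -0.42.

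**Figure D3:**
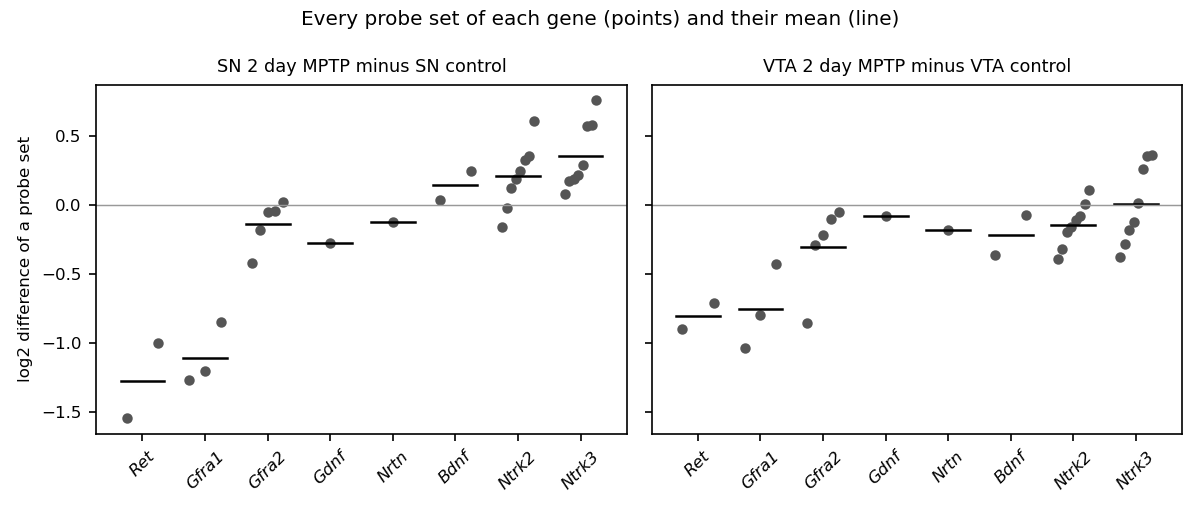
Log2 difference from control after 2 days of MPTP for each of the 30 probe sets (points) with the mean of each gene (lines), in SN (left) and VTA (right). The 5 probe sets of Ret and Gfra1 lie under 0 in both panels, whereas the 8 of Ntrk3 lie above 0 in SN and on both sides of it in VTA.

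Ret and Gfra1 followed the genes that define dopamine neurons from array to array. The mean of 19 measured dopamine neuron identity genes (Th, the dopamine transporter gene Slc6a3, the vesicular transporter gene Slc18a2, Ddc and others) correlated with Ret at Pearson r = 0.92 and Spearman rho = 0.90 over the 18 arrays. Both permutation p were 1e-05, the smallest that 100000 permutations can give, and both adjusted p over 16 relations were 0.00016. These permutations shuffled the 18 arrays freely across groups. They take the arrays as exchangeable, which the groups and possibly shared animals may not allow. For Gfra1, r was 0.85 (permutation p = 3e-05, adjusted p = 0.00024) and rho was 0.84 (permutation p = 4e-05, adjusted p = 0.00032). Without the 2 arrays farthest from the median of the identity mean, SN control 1 and VTA control 2, r was 0.88 for Ret and 0.78 for Gfra1. After group means were subtracted, arrays were shuffled within groups only. Then r was 0.89 for Ret (adjusted permutation p = 0.0105) and 0.86 for Gfra1 (adjusted permutation p = 0.0048), so the relation is also present within groups. This shuffle still takes arrays of different groups as independent. That may not hold, since 17 of 18 arrays correlated best with an array of their own replicate number. Of the 16 relations, to identity genes and to astrocyte genes, only the 2 of Ret and Gfra1 with identity genes passed. The next was Ntrk2 with astrocyte genes at r = 0.52, rho = 0.46 (permutation p = 0.0285 and 0.0536, adjusted p = 0.152 and 0.286). The share of all genes that reach such an r with the identity mean was not counted.

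**Figure D4:**
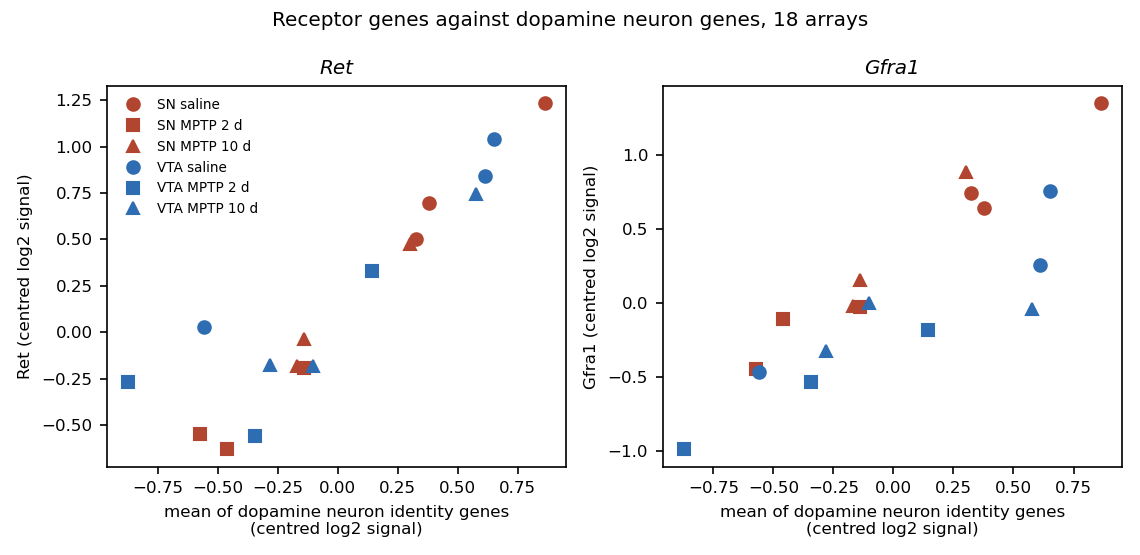
Centred log2 signal of Ret (left) and Gfra1 (right) against the mean of 19 dopamine neuron identity genes on the same array, for 18 arrays by region (colour) and treatment (shape). Arrays with a higher identity mean have higher values of both genes, with r = 0.92 for Ret and 0.85 for Gfra1.

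Identity genes were lower in the same comparisons as Ret and Gfra1, and their part in the receptor differences was not tested. All 19 were lower in SN after 2 days, with a median of -0.97 beside -0.027 for all genes. Of them, 12 had an unadjusted p under 0.05 in limma, against 3.8% of all genes lower, and none passed the adjusted threshold. After 10 days in SN all 19 were lower, with a median of -0.51, and in VTA 18 of 19 were lower after 2 days (median -0.55) and 16 of 19 after 10 days (median -0.17). The identity mean spanned 0.32 to 0.86 on SN control arrays and -0.57 to -0.14 on SN 2 day arrays. On VTA controls it spanned -0.56 to 0.65, and array 1, the low one for Ret and Gfra1, was the low one here. Fewer dopamine neurons among the captured cells and less of these RNAs in each neuron cannot be told apart in such samples.

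Set against the identity mean of the same array, Ret and Gfra1 differed in what was left. The Ret value minus the identity mean was 0.29 ± 0.097 in SN controls and -0.066 ± 0.098 after 2 days (SD, n = 3), and the lowest control array, 0.18, lay above the highest 2 day array, 0.025. After 10 days it was 0.087 ± 0.093. In VTA it was 0.40 ± 0.18, 0.19 ± 0.41 and 0.066 ± 0.13 for control, 2 and 10 days. For Gfra1 the remainder was 0.39 ± 0.11, 0.20 ± 0.13 and 0.34 ± 0.22 in SN, and -0.052 ± 0.26, -0.21 ± 0.11 and -0.18 ± 0.38 in VTA (SD, n = 3), so every SN mean lay above every VTA mean. A fall of the remainder in SN after 2 days is not particular to Ret. Th, itself an identity gene, was at 0.87 in SN controls and -0.42 after 2 days, and Ret at 0.81 and -0.46. The identity mean was at 0.52 and -0.39 in these groups. The share of all genes whose remainders do not overlap was not counted. All these remainders were formed after the data were seen and carry no test.

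Of 14 astrocyte genes, 12 were higher in SN after 2 days (median 0.19), beside 44.7% of all genes. Of the 14, 4 had an unadjusted p under 0.05 in limma, against 6.65% of all genes. In VTA after 2 days 11 were lower (median -0.12, 2 with an unadjusted p under 0.05), while 48.4% of all genes were higher. TRKB and TRKC are known also from astrocytes, and the part of astrocyte RNA in the Ntrk3 and Ntrk2 values was not tested. Of 9 oligodendrocyte genes, 8 were lower in SN after 2 days (median -0.21, 0 with an unadjusted p under 0.05). All 9 were lower in VTA after 2 days (median -0.39, 3 with an unadjusted p under 0.05). Microglial genes divided in SN after 2 days into 5 higher and 6 lower of 11. In VTA after 2 days, where Ret and Gfra1 were lower, 8 of 11 microglial genes were lower (median -0.30, 2 with an unadjusted p under 0.05). Of 6 oligodendrocyte precursor genes, 5 were lower there (median -0.44, 3 with an unadjusted p under 0.05). In that comparison 8.06% of all genes had an unadjusted p under 0.05 in limma. No gene of these lists passed the adjusted threshold after 2 days in either region. The part of these lists in the VTA values was not tested.

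Ret and Gfra1 were also the closest pair within the set, at r = 0.77 over the 18 arrays, and 0.76 after group means were subtracted, the highest of 28 pairs as a description. Bdnf and Ntrk2, a ligand and its receptor, followed at 0.58 (0.62 after group means were subtracted). Gdnf and Ntrk3 were the lowest pair at -0.51, but after group means were subtracted the lowest were Ret and Bdnf at -0.70 and Gfra1 and Bdnf at -0.64. The points share arrays, amplification and normalisation.

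The genes nearest to Ret by Pearson r over 18 arrays, among 16311 genes with ordinary symbols, were Chrna4 (0.93), a nicotinic receptor subunit gene, Prima1 (0.93), which encodes the membrane anchor of acetylcholinesterase, Cplx1 (0.92), a complexin gene, Th (0.91) and Plcxd2 (0.90). Those nearest to Gfra1 were Fam210b (0.92), Rab3c (0.92), a synaptic vesicle GTPase gene, and Slc18a2 (0.90). With all genes ordered, clone symbols included, Gfra1 itself stood at place 64 for Ret, behind Slc18a2 at 27, Ddc at 38 and Slc6a3 at 42. In the like order of all genes for Gfra1, Slc6a3 stood at 5, Ddc at 12, Th at 38 and Ret at 52. For the others the nearest genes were less near. Gfra2 had Jam3 (0.80), Sstr5 and Prex1, Gdnf had Bckdha (0.83), Itga3 and Slc9a3r2, and Nrtn had Olfr140 (0.83), Rfxank and Dna2. Bdnf had Baiap3 (0.80), Gal and Kbtbd2, Ntrk2 had Wdr20 (0.77), B3gnt7 and Zbtb11, and Ntrk3 had Med13l (0.77), Pcnx and Mllt10.

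Beyond the set, 40 of 50 listed genes of the same pathways were measured, among them the other GDNF family co-receptors, the other neurotrophins, p75 and the adaptors that bind activated RET and TRK. None passed the adjusted threshold in limma in any of 8 comparisons, and their medians lay between -0.069 and 0.044. In SN after 2 days 22 were higher and 18 lower, and 2 of 40 had an unadjusted p under 0.05, under the 6.65% of all genes. They were the adaptor genes Dok1, at -0.30 ± 0.13, and Grb7, at 0.43 ± 0.20 (SE, n = 3 and 3). After 10 days in SN there were 2 of 40, against 5.57% of all genes, Grb7 at 0.46 ± 0.20 and Dok2 at 0.48 ± 0.23.

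In VTA after 2 days 3 of 40 pathway genes had an unadjusted p under 0.05, near the 8.06% of all genes. They were the adaptor genes Shc1, at -0.82 ± 0.36, and Dok4, at 0.97 ± 0.45, and the syndecan gene Sdc3, at -0.41 ± 0.18 (SE, n = 3 and 3). There were 0 after 10 days in VTA, against 5.41% of all genes, and 1 between regions over the 3 treatments, against 4.2%, the adaptor gene Shc3 at -0.35 ± 0.15 (SE, 9 arrays a region).

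Genes that such kinases are known to induce were read as well, 18 of 19 listed being measured. In SN after 2 days 16 of 18 were higher, with a median of 0.27, beside 44.7% higher and a median of -0.027 over all genes, but none had an unadjusted p under 0.05. The mean of these genes on the SN control arrays spanned -0.51 to 0.17 and on the 2 day arrays 0.048 to 0.25, so the groups overlapped. After 10 days in SN 2 of 18 genes had an unadjusted p under 0.05 in limma, against 5.57% of all genes. They were Dusp5, a phosphatase gene, at 0.89 ± 0.28 and Spry4, a feedback inhibitor gene, at -0.31 ± 0.14 (SE, n = 3 and 3). In VTA after 2 days there was 1 of 18, against 8.06% of all genes, the phosphatase gene Dusp4 at 0.72 ± 0.31. None of the 18 passed the adjusted threshold in any comparison, and most are also induced by other signals.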

How the data were processed

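Each array was hybridised with RNA amplified from laser captured cells. The authors deposited log2 signals for 45101 probe sets, which they normalised by RMA in GeneSpring GX 10.0 according to the series' design text. The median of every probe set was 0 to within 5e-07, a centring that no source states, so dim probe sets could not be filtered. The sources used here name RMA and do not describe its background correction. Groups and replicate numbers came from sample titles.

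Probe sets with 1 symbol (34945 of 45101) were averaged per gene; 99.7% of the symbols were in the RefSeq table of GRCm38.p6. Differences were tested with limma 3.58.1 (R 4.3.3; lmFit, then eBayes), modelling the means of 6 groups jointly from 18 arrays, two-sided, in 8 comparisons, with Benjamini-Hochberg adjustment over 18193 genes within a comparison and a threshold of 0.05. On simulated data of SN after 2 days (18193 genes, 200 of them changed), 76% of genes with a simulated log2 difference of 1 and 94% of those with 2 were called. There were 9 false calls. The simulated noise was independent between genes and arrays, and the changed genes were drawn at random over genes of any spread. These shares therefore do not tell how often a change in Ret or Gfra1, with within-group SDs of 0.43 and 0.41, would be called. The p-values measure the spread between these samples, which may be partly technical, and shared animals would make comparisons within and between regions dependent.

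Relations used 100000 permutations. The rule for named genes took all members, pathway genes with unadjusted p under 0.05, and the 3 nearest genes per member (5 for Ret), leaving out clone symbols. The members and all lists were chosen with earlier results of these data known. Alternatives were single probe sets, the most variable probe set, compared groups only, array centring, quantile normalisation, array weights, a replicate block, robust trend and leaving out arrays. Fits without the 2 widest arrays and with a random block were chosen after seeing the data. Upstream sequences were read from a RefSeq table, which held 5 of the 8 measured genes; Ret, Gfra2 and Ntrk3 had no entry. Plots used matplotlib 3.10.9 (Python 3.11.15).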

Additional observations from a re-analysis of the deposited data

How the results depend on the processing

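The count of genes of the set past the adjusted threshold was 0 in all 151 alternative fits, that of single probe sets included. The smallest adjusted p was 0.157 in fits of genes, for Ret in SN after 2 days with array weights, and 0.506 for a single probe set. Ret in SN after 2 days ran from -1.54 to -1.06 and Gfra1 from -1.24 to -0.88 over the fits of genes, including those that left out an array (single probe sets are given with the results). Of 64 differences of the 8 genes, 42 kept their sign in every fit of genes, and 33 kept it in every fit of genes and in every probe set. Of those printed, the Ret VTA minus SN difference in controls turned to 0.037 without the 2 widest arrays and ran from -0.38 to 0.13 when single arrays were left out. Over the 3 treatments that difference ran from -0.049 to 0.16 when single arrays were left out. The difference between VTA and SN responses after 10 days likewise ran from -0.088 to 0.42 for Ret and from -0.058 to 0.55 for Gfra1. With the replicate number as a block, Ret in SN after 2 days was -1.27 ± 0.32 (SE; limma adjusted p = 0.425) and Gfra1 -1.10 ± 0.29 (adjusted p = 0.425), and the block changed no call of the set. Arrays of one treatment and number in SN and VTA correlated at 0.050 to 0.40 after group means were removed, over 0.1 in 7 of 9 pairs, and 17 of 18 arrays correlated best with an array of their own number, a hint from the data only. Counts over all genes in SN after 2 days ran from 0 to 20, with 20 under array weights and 6 under quantile normalisation. The number of relations that passed was 2, and 3 without the 2 farthest arrays, where Ntrk2 with astrocyte genes passed at r = 0.69 (adjusted permutation p = 0.0161). A filter on low values was not run, because the values hold no level.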
